A study of Rattus norvegicus with 10 samples.

Results

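The comparison of wild-type human BMPR2 with empty vector in cells labelled as the A7r5 line rests on 4 of the 10 arrays of the series, 2 from each group. Its members are the probe sets (groups of short probes that read 1 transcript) other than Affymetrix controls with a log2 value of 4.90 or more, the 40th percentile over 8 arrays, on 2 or more of them. These are 19534 of 31042 probe sets, and 14643 of them have a gene name. A7r5 is a line derived from embryonic rat aorta, and its cells were labelled as vascular smooth muscle, kept in normoxia in DMEM with 10% serum and harvested at about 50% confluence. One group carried an empty vector and is titled native. The other groups were stably transfected with the human receptor as wild type, with the deletion 2579-2580delT in the cytoplasmic tail (CD mutant), with T354G in the extracellular domain (ED mutant) or with C994T in the kinase domain (KD mutant). The CD and ED mutant arrays entered the fit, so that 4 groups shared 1 estimate of the spread, and the 2 KD mutant arrays were left out of filter and fit. The labels name no independent second line for a construct, so construct and line cannot be told apart. The labels do not say which promoter drives the receptor, whether a line is 1 clone or a pool, or whether both arrays of a group are from cultures grown apart. P-values therefore measure only how far these arrays scatter, and that scatter may be technical. The small number of arrays limits the precision.

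BMPR2 is a type II receptor of bone morphogenetic proteins (BMPs), secreted ligands of the TGF-beta family. On ligand binding it phosphorylates type I receptors, which phosphorylate Smad1, Smad5 and Smad8, and these enter the nucleus with Smad4 and raise transcription of direct targets such as the Id genes, which encode inhibitors of basic helix-loop-helix factors. The receptor's long cytoplasmic tail also binds LIM kinase and other proteins outside the Smad route. Loss of BMPR2 function causes heritable pulmonary arterial hypertension, a disease in which the walls of small lung arteries thicken. In vascular cells, reduced BMPR2 is known to go with stronger inflammatory signalling.

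The 4 arrays were close to each other over all probe sets other than controls. Pearson's r was 0.9950 between the empty vector arrays, 0.9958 between the wild-type arrays and 0.9934 to 0.9955 between the groups, whereas the KD mutant arrays reached 0.7095 to 0.7194 against the other 8. Among controls, the ribosomal RNA probe set read 6.83 and 6.86 with empty vector and 6.54 and 6.52 with wild type. It read 6.53 and 6.49 with the CD mutant and 6.55 and 6.65 with the ED mutant. The empty vector arrays were thus the highest of the 8. The poly-A spike controls averaged 8.02 and 7.76 with empty vector and 7.49 and 8.34 with wild type, so these groups overlapped. The part of either control in the differences described here was not tested.

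The labelled cell type was checked against its defining markers. Most smooth muscle markers were not high and more of the epithelial markers were, so these levels alone do not bear out the label. Of 10 smooth muscle markers 7 were tested, and 1, Smtn (smoothelin, a cytoskeletal protein), lay above percentile 80 of all probe set values, at 10.36 over the 4 arrays. Acta2, smooth muscle actin, read 6.26, Tagln, the actin-binding transgelin, read 4.96, and Cnn1, calponin, read 4.47 and was below the filter. Myh11, the smooth muscle myosin heavy chain, read 6.73, and Myocd, the myocardin coactivator, read 4.27. The 3 markers below the filter were Cnn1, Lmod1 and Myocd, whereas Myh11 lay at percentile 77.8, Acta2 at 69.4 and Tagln at 41.9. Of 10 epithelial markers 8 were tested and 5 lay above percentile 80, among them Cdh1 (E-cadherin) at 9.46 and the keratin genes Krt18 at 11.39, Krt19 at 9.38 and Krt8 at 8.45, while Epcam read 3.77. The fibroblast and mesenchymal list of 10 markers had 8 tested and 2 above percentile 80. Those were Vim, the mesenchymal intermediate filament vimentin, at 12.76 and Cdh2 at 9.96. In the same list Thy1 read 5.34 and Col3a1 4.80, while Dcn at 4.42 and Col1a2 at 3.89 were below the filter. The KD mutant arrays, also titled A7r5, averaged 9.38 for Acta2, 11.33 for Tagln, 7.86 for Cnn1 and 13.62 for Col1a2. There Cdh1 averaged 5.87 and Krt18 9.31. Some markers went the other way, as Smtn was lower there, at 8.34, and Krt7 higher, at 11.94 against 7.25. Why the KD mutant arrays differ was not tested. The mean of the smooth muscle markers was 5.79 and 5.80 with empty vector and 5.86 and 5.89 with wild type, a small shift without overlap. That of the epithelial markers was 7.07 and 7.03 against 7.04 and 7.06, with overlap. Leukocyte markers averaged 4.84 and 4.93 with empty vector and 4.87 and 4.78 with wild type, with Ptprc, the pan-leukocyte antigen, at 3.34. None of the 5 endothelial markers with a probe set passed the filter, and the list averaged 4.09 and 4.14 against 4.03 and 4.02. Skeletal muscle markers averaged 5.23 and 5.27 against 5.45 and 5.30. The part of these shifts in the results was not tested. In bulk RNA such as this, fewer cells of a type and less RNA per cell cannot be told apart.

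**Figure D1:**
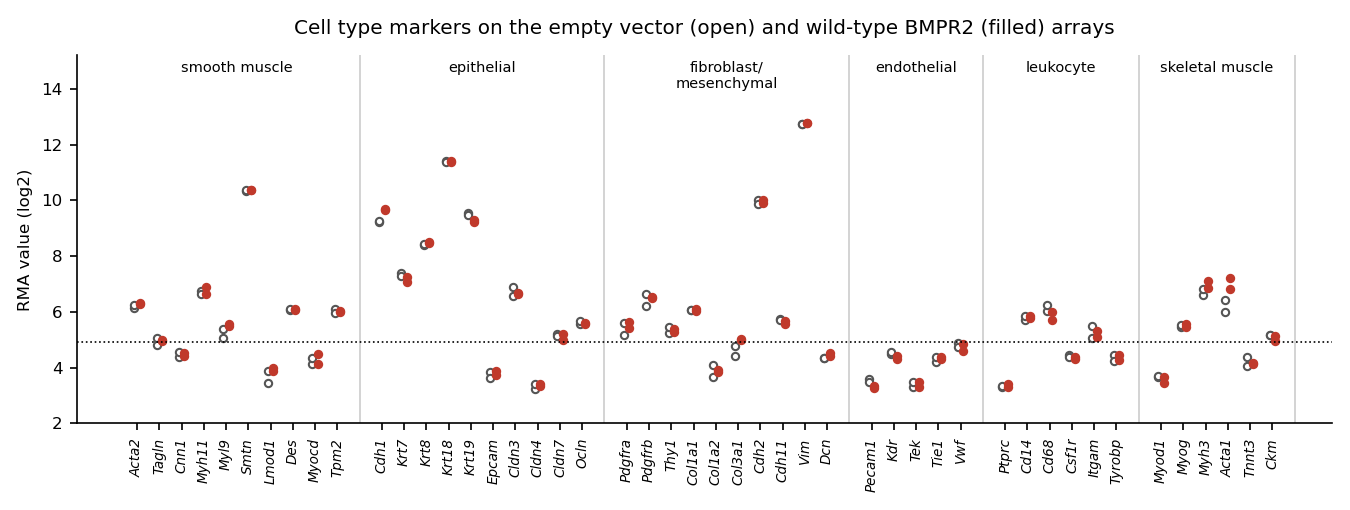
Log2 value of each marker (horizontal axis, grouped by cell type) on the 2 empty vector arrays (open) and the 2 wild-type BMPR2 arrays (filled), with the filter level of 4.90 dotted. Krt18, Vim, Cdh2 and Smtn lie high, Acta2 lies at 6.26 and Cnn1 and Col1a2 lie below the filter level, with open and filled points close together for most markers.

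Transcripts of 2 chemokines fell with wild-type BMPR2, and that of 1 secretory pathway gene rose. In limma these 3 probe sets of 19534 were called at an adjusted p under 0.05 (0.0154% of those tested, 0.00512% higher and 0.0102% lower). Ccl2 encodes a chemokine that recruits monocytes through the receptor CCR2. It read 8.88 and 8.84 on the empty vector arrays and 7.50 and 7.38 on the wild-type arrays. Both wild-type arrays were more than 1 log2 unit below both empty vector arrays, and Ccl2 fell by 1.42 (SE 0.0907, 95% confidence interval -1.62 to -1.21), which is 2.67-fold (adjusted p = 0.000674). Ccl2 was called under all 16 refits with other settings, with an adjusted p from 6.44e-07 to 0.0231.

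Ccl20, whose product attracts lymphocytes and dendritic cells through CCR6, read 8.16 and 8.10 with empty vector and 7.38 and 7.25 with wild type. The groups did not overlap, and Ccl20 fell by 0.82 (SE 0.0907, interval -1.02 to -0.62), or 1.76-fold (adjusted p = 0.0330). Mia2, which helps bulky cargo leave the endoplasmic reticulum, went the opposite way. It read 4.86 and 4.76 with empty vector, both below the filter level, and 5.82 and 5.61 with wild type. It rose by 0.91 (SE 0.0962, interval 0.69 to 1.12), or 1.88-fold (adjusted p = 0.0330), and since RMA compresses differences at low signal the size is not measured exactly. The other Mia2 probe set was too dim to test and stood 0.18 higher. Unlike Ccl2, these calls were narrow. Ccl20 kept its call in 5 of 16 refits (adjusted p 0.000672 to 0.333) and Mia2 in 4 of 15 (0.0037 to 0.294). Leaving out any 1 of the 8 arrays ended both calls, and the count of called probe sets was then 1 or 2.

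The sequence upstream of Ccl20 is shown because it is a called gene of a family known for control by NF-kB, the transcription factor of inflammatory signalling. The 250 bases before its start in RefSeq (rat assembly GRCr8, chr9:91836909-91837158, plus strand) are printed 5′ to 3′, with the match to the NF-kB consensus in capitals.

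Ccl20: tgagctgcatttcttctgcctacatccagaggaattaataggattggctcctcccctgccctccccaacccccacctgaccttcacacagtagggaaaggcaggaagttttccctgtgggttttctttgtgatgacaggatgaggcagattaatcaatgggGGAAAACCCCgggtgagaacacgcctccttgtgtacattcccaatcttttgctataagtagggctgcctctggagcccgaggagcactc

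That match lies 89 to 80 bases before the start, on the reverse strand. Such a match was found in 6.33% of 33469 promoters of the same length, searched on both strands, so it is a description of these letters and not of binding. The AP-1 site TGANTCA, found in 6.34% of promoters, had no match in this window.

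**Figure D2:**
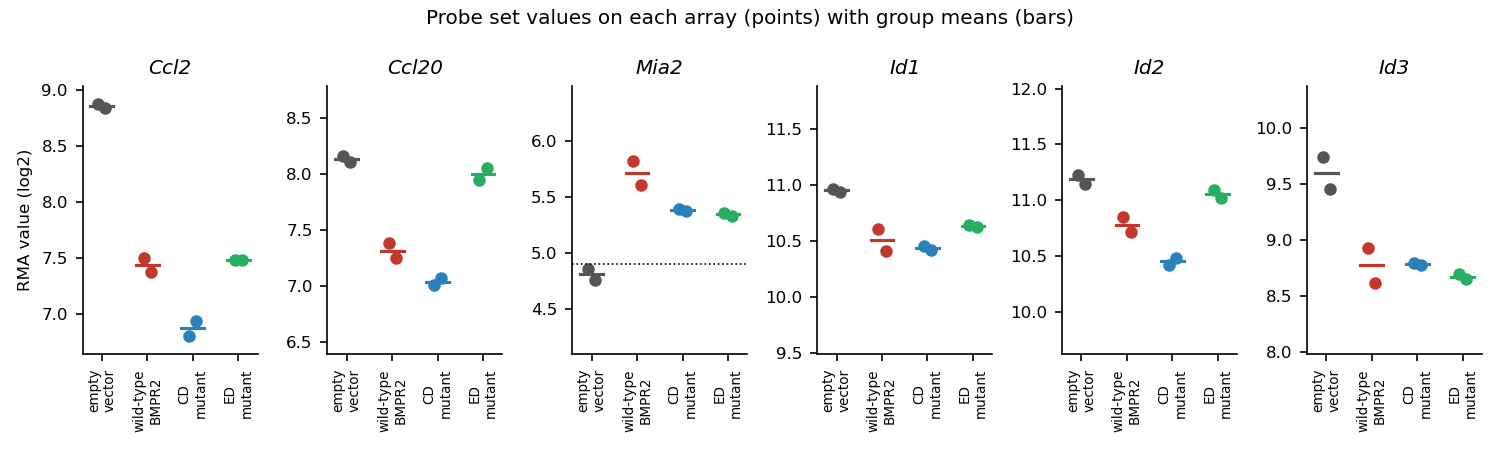
Log2 value on each array (points) and group mean (bars) for the 3 called genes and for Id1, Id2 and Id3, by transfected construct. Empty vector and wild-type points do not overlap in any panel, the ED mutant lies beside empty vector for Ccl20 and beside wild type for Ccl2, and the dotted line in the Mia2 panel is the filter level of 4.90.

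The mutant receptors give a second reading of the 3 called genes, with the limit that every difference from empty vector shares the same 2 empty vector arrays. Ccl2 stood at -1.42 against empty vector with wild type, at -1.99 with the CD mutant and at -1.37 with the ED mutant (adjusted p = 2.8e-05 for CD and 0.000426 for ED, where 0.22% and 1.64% of probe sets were called). For Ccl20 the values were -0.82 with wild type, -1.10 with the CD mutant and -0.13 with the ED mutant (adjusted p = 0.00315 and 0.526). Mia2 stood at 0.91, 0.58 and 0.54 (adjusted p = 0.0571 for CD and 0.0300 for ED). The differences between receptors were tested directly. The ED mutant was 0.69 above wild type for Ccl20 (SE 0.0907, adjusted p = 0.0203), where 0.282% of probe sets were called in that comparison. Neither Ccl2, at 0.04 (adjusted p = 0.905), nor Mia2, at -0.37 (adjusted p = 0.189), passed this test. Between the CD mutant and wild type no probe set was called in limma (0%, with 1019 at an unadjusted p under 0.05). There Ccl2 differed by -0.57 (SE 0.0907), Ccl20 by -0.28 (SE 0.0907) and Mia2 by -0.33 (SE 0.0962), each with an adjusted p of 0.934 in limma. For Ccl2 the CD mutant arrays read 6.80 and 6.94, both below the wild-type arrays at 7.50 and 7.38. The missed threshold therefore does not show that the 2 receptors are alike. The Ccl20 difference between ED mutant and wild type lost its call when either wild-type array, either ED mutant array or empty vector replicate 1 was left out, with values of 0.62 to 0.75.

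Beyond the 3 called probe sets the comparison held many small differences. At an unadjusted p under 0.05 there were 1861 probe sets (9.53%), 879 higher and 982 lower, where 977 would be counted if none differed. The groups did not overlap in 20.8% of probe sets on the higher side and in 22.2% on the lower side. The absolute difference had a median of 0.0894, a 95th percentile of 0.304 and a 99th percentile of 0.462 on the log2 scale. Only 4 probe sets differed by at least 2-fold. These were Ccl2 on the lower side and Smchd1, Slc5a11 and N4bp1 on the higher side, of which N4bp1 (1.00, adjusted p = 0.192) lies outside the naming rule and was picked after its values were seen. At 1.5-fold there were 66 higher and 23 lower. In simulated data for this comparison over 19534 probe sets, 24% of 50 changes of 0.5, 89% of 100 changes of 1 and 100% of 50 changes of 2 on the log2 scale were recovered, with 5 false calls. The simulated arrays had independent noise and many more large changes than the real arrays showed, which eases the adjusted threshold. These rates therefore check the code and do not give the power of this comparison. On the arrays themselves, 3 of the 4 probe sets that differed by at least 2-fold were not called.

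The number of called probe sets depended on the estimate of the spread and on the filter. It was 19 of 13099 tested (18 named) when the filter was set at the 60th percentile. It was 196 of 19534 (101 higher, 95 lower) when the variance prior of limma followed intensity and was robust to outliers. These settings also call genes that are described here as not called. Of the 30 genes with the lowest p named here, 15 in each direction, 3 were called in the fit reported. At the 60th percentile filter 18 were called, and with the intensity-dependent robust variance 30. These genes were picked for a low p on the same arrays, so such calls are not separate evidence for them. The same holds for list members named by p, Inhba and the Id genes included. The count was 1, Ccl2, with no filter and with only the 4 arrays compared. Genes with several probe sets give a further measure of how far 1 probe set can be read. Among 2093 genes with exactly 2 tested probe sets, both had the same sign in 53.7%, and where the lower unadjusted p was under 0.01 in 90 of 138 genes (65.2%).

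**Figure D3:**
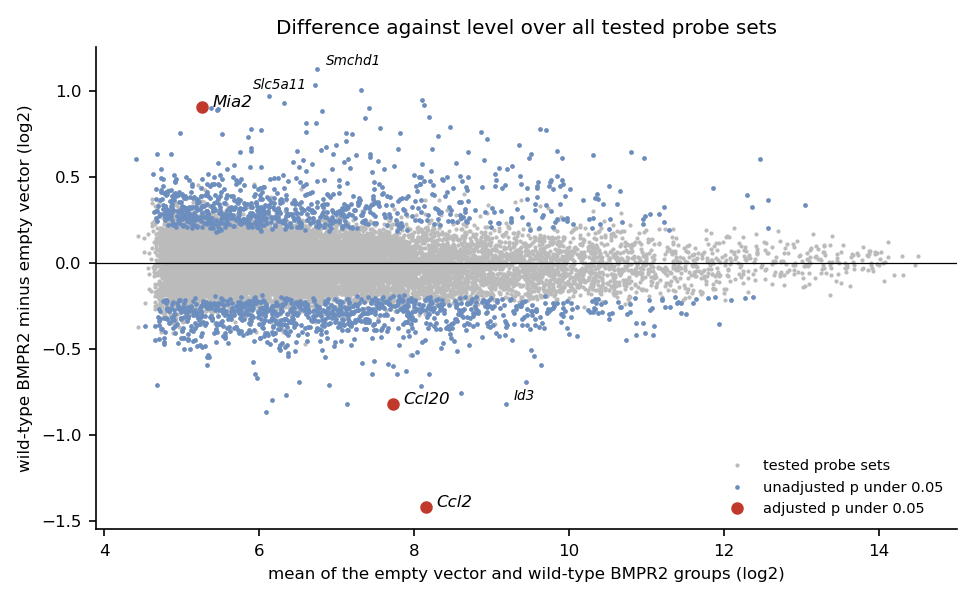
Difference of wild-type BMPR2 from empty vector (vertical axis, log2) against the mean level of the 2 groups (horizontal axis, log2) for the 19534 tested probe sets. The 3 called probe sets, Ccl2, Ccl20 and Mia2, are large red points, and the 1861 with an unadjusted p under 0.05 are blue.

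In the BMP pathway itself no gene was called. The receptor was read first, although both of its probe sets carry the rat annotation and do not check the human transgene. One Bmpr2 probe set read 6.66 and 6.70 with empty vector and 7.22 and 6.95 with wild type. Both wild-type arrays were above both empty vector arrays, by 0.40 on average, without passing the test (SE 0.138, adjusted p = 0.385). The other Bmpr2 probe set read 5.05 and 5.29 against 5.30 and 5.33, a difference of 0.14 (adjusted p = 0.744). Of 12 BMP and TGF-beta receptors tested, limma called 0, 1 was higher and 2 were lower at an unadjusted p under 0.05, and the median difference was 0.01. Over all 10904 genes tested, 9.73% had an unadjusted p under 0.05, 434 higher and 627 lower. Acvr1, the type I receptor ALK2, differed by -0.33 (adjusted p = 0.406), and Acvr2a, a type II receptor of activins, by -0.20 (adjusted p = 0.485).

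Among 14 ligand genes of the family limma called 0, with 0 higher and 3 lower at an unadjusted p under 0.05. In that list 10 differences were negative and the median was -0.08, against -0.01 over all 10904 genes. The member with the lowest p was Inhba, the beta A subunit of activin A, a ligand that signals through Smad2 and Smad3. Inhba read 8.97 and 9.00 with empty vector and 8.35 and 8.10 with wild type. The 2 groups stood 0.76 apart (SE 0.117, adjusted p = 0.103), and Inhba passed at the 60th percentile filter (adjusted p = 0.0459) and with the intensity-dependent robust variance (adjusted p = 0.0025). Against the same empty vector arrays Inhba stood at -0.71 with the CD mutant and -0.66 with the ED mutant (adjusted p in limma 0.0524 and 0.0286). Its other tested probe set stood at -0.17 with wild type. Inhbb, the beta B subunit, differed by -0.40 (adjusted p = 0.469), and Gdf15, a stress-induced member of the family, by -0.22 (adjusted p = 0.452).

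Of 10 BMP and activin antagonists limma called 0, with 1 higher at an unadjusted p under 0.05, and the median difference was 0.02. Crim1, a membrane protein that binds BMPs, differed by 0.34 (adjusted p = 0.269), and Fst, the activin trap follistatin, by -0.12 (adjusted p = 0.806). Of 20 Smads and Smad regulators limma called 0 (2 higher at an unadjusted p under 0.05), with 12 positive differences and a median of 0.06. Smad7, the inhibitory Smad, differed by 0.22 (adjusted p = 0.506), Smad2 by 0.15 (adjusted p = 0.642) and Smad3 by -0.20 (adjusted p = 0.579).

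Direct targets of BMP signalling gave 0 calls in limma among 14 genes tested (1 higher and 3 lower at an unadjusted p under 0.05), and 3 Id genes were the members with the lowest p, all lower with wild-type receptor. Id3 read 9.74 and 9.45 with empty vector and 8.93 and 8.62 with wild type. Id1 read 10.97 and 10.94 against 10.61 and 10.41. For Id2 the arrays read 11.22 and 11.15 against 10.85 and 10.72. In each of the 3 genes both wild-type arrays lay below both empty vector arrays, which 25.4% of all genes tested also showed. The differences were -0.82 for Id3 (SE 0.126, adjusted p = 0.103), -0.45 for Id1 (SE 0.0929, adjusted p = 0.192) and -0.40 for Id2 (SE 0.0898, adjusted p = 0.214). Id4, the fourth member of the family, stood at 0.11 (adjusted p = 0.839). The mutant receptors were set against the same 2 empty vector arrays in limma. Id3 stood at -0.81 with the CD mutant and -0.92 with the ED mutant (adjusted p = 0.0440 and 0.0103). Id1 stood at -0.52 and -0.32 (adjusted p = 0.0746 and 0.128), and Id2 at -0.73 and -0.13 (adjusted p = 0.0255 and 0.530). Over all probe sets 0.22% were called with the CD mutant and 1.64% with the ED mutant. With the intensity-dependent robust variance Id1, Id2 and Id3 passed (adjusted p = 0.00454, 0.00454 and 0.00194), and at the 60th percentile filter Id3 alone of the 3 did (adjusted p = 0.0459). The median over the 14 targets was 0.02. Of 15 TGF-beta target genes limma called 0 (1 higher and 1 lower at an unadjusted p under 0.05) and the median was -0.05, with Junb, a component of AP-1, at -0.25 (adjusted p = 0.416).

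The promoters of the 3 Id genes are shown because the wild-type arrays lay below both empty vector arrays in all 3 genes. Each is the 250 bases before the start in RefSeq (GRCr8), 5′ to 3′ on the gene's strand, at chr3:161671314-161671563 (plus) for Id1, chr6:47470996-47471245 (minus) for Id2 and chr5:153656041-153656290 (plus) for Id3. Capitals mark the CCAAT box on either strand, a general promoter element.

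Id1: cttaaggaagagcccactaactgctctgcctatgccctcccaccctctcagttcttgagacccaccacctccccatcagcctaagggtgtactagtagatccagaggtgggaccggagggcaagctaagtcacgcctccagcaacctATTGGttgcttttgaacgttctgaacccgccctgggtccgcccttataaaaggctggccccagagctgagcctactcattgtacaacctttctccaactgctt

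Id2: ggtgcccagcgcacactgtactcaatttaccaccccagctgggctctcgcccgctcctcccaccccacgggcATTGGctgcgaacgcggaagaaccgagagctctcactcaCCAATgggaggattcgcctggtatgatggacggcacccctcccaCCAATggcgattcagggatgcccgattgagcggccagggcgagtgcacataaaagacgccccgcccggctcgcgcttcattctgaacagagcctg

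Id3: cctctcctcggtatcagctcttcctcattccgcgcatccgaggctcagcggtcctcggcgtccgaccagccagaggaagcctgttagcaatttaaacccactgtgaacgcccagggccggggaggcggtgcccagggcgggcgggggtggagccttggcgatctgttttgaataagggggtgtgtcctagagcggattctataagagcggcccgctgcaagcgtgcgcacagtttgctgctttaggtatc

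Id1 held 1 CCAAT match, Id2 held 3 and Id3 held none, and 34.0% of promoters held at least 1. The GC-rich Smad site GGCGCC (8.69% of promoters) and the Smad box repeat GTCTAGAC (0.173%) had no match in these 3 windows, nor had TGANTCA or the CRE TGACGTCA (1.59%). The windows end close to the start, and no match says only that these letters are not in them.

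Besides Mia2, the 14 higher genes with the lowest p had differences of 0.55 to 1.13 and adjusted p from 0.0617 to 0.125. None was called in the fit reported. All were with the intensity-dependent robust variance, which called 196 of 19534 probe sets. Arhgap5, a GTPase-activating protein, read 7.56 and 7.78 with empty vector and 8.65 and 8.53 with wild type (difference 0.92, adjusted p = 0.0617). Slc5a11, a cotransporter of sodium and inositol, read 6.03 and 6.39 against 7.27 and 7.22 (difference 1.03, adjusted p = 0.0995). Mt2A, a metallothionein that binds zinc and copper, read 9.39 and 9.09 against 10.02 on both wild-type arrays (difference 0.78, adjusted p = 0.0995). Its relatives Mt1 and Mt3 did not rise with it, at -0.09 and -0.02. In the list of 10 metallothionein and zinc transport genes limma called 0. There 2 were higher and 0 lower at an unadjusted p under 0.05, with 5 positive and 5 negative differences and a median near 0. For Arhgap5, Slc5a11 and Mt2A the gap between the groups exceeded the gap within either group. Depp1, a target of FOXO factors, read 6.53 and 6.41 against 7.10 and 7.16 (difference 0.66, adjusted p = 0.0720). The liver-type gene Fgb, fibrinogen beta chain, read 4.88 and 4.98 against 6.03 and 5.63 (difference 0.90, adjusted p = 0.0995), while its 2 other probe sets were too dim to test and stood at -0.02 and 0.03. In the list of 18 liver and plasma protein genes that holds Fgb, limma called 0 (4 higher at an unadjusted p under 0.05) and the median was 0.09, with Hpx, the heme carrier hemopexin, at 0.35 (adjusted p = 0.420). Smchd1, a chromatin protein of X inactivation, had the largest difference, 1.13, and a wide spread, at 5.88 and 6.50 against 7.50 and 7.13 (adjusted p = 0.112). Its other probe set, too dim to test, went the opposite way, at 3.53 and 3.59 with empty vector and 2.98 and 3.10 with wild type.

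For the remaining higher genes the differences were 0.89 for Huwe1, a ubiquitin ligase, 0.79 for Purb, a nucleic acid-binding repressor, and 0.65 for Wdr33, a polyadenylation factor. Foxn3, a forkhead repressor, stood at 0.59 and Adprm, an ADP-ribose phosphohydrolase, at 0.55. Togaram1, a microtubule protein of cilia, stood at 0.75 and Ypel2 at 0.65. Gstm2, a glutathione S-transferase, stood at 0.79, and its near-identical relatives may share its probes. For several of these 1 probe set carried the difference. A further Huwe1 probe set stood at 0.28 (unadjusted p = 0.00861) and that of Adprm at 0.52 (unadjusted p = 0.00309). The further Adprm probe set was dim, at 4.28 and 4.47 with empty vector and 4.69 and 5.09 with wild type. The filter level was 4.90. For Foxn3 the 3 others stood at 0.09, 0.20 and 0.03. The 3 others of Purb stood at -0.18, 0.10 and -0.03, that of Wdr33 at -0.01, and the 2 of Togaram1 at 0.03 and 0.09.

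Besides Ccl2 and Ccl20, the 13 lower genes with the lowest p differed by -0.82 to -0.57, with adjusted p from 0.0617 to 0.125, and include Id3 and Inhba. Slc17a1, a phosphate and urate transporter, read 6.84 and 6.62 with empty vector and 6.01 and 5.92 with wild type (difference -0.76, adjusted p = 0.0617). Gja1, the gap junction protein connexin 43, read 6.40 and 6.20 against 5.68 and 5.59 (difference -0.66, adjusted p = 0.0995), but its other tested probe set stood at 0.09. Mysm1, a histone H2A deubiquitinase, read 7.37 and 7.14 against 6.59 and 6.51 (difference -0.71, adjusted p = 0.0995). All 4 arrays of these genes were ordered by group, as the naming rule required.

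Plaur, the urokinase receptor of cell-surface proteolysis, read 9.99 and 9.87 with empty vector and 9.43 and 9.25 with wild type (difference -0.59, adjusted p = 0.103), while its other probe set, too dim to test, stood at 0.22. Maff, a small Maf transcription factor, read 7.85 and 7.71 against 7.20 and 7.07 (difference -0.65, adjusted p = 0.103). Idi1, an isomerase of cholesterol synthesis, read 8.22 and 7.98 against 7.48 and 7.43 (difference -0.65, adjusted p = 0.116). Its other probe set, too dim to test, stood at 0.001. Of 21 cholesterol synthesis genes limma called 0, and Idi1 was the only 1 at an unadjusted p under 0.05. That list had 11 positive and 10 negative differences and a median near 0. The remaining lower genes were Nrep (-0.69), Gpr137b, a lysosomal membrane protein (-0.62), and Ctsh, the lysosomal protease cathepsin H (-0.60). Perp, a p53 target of desmosomes (-0.58), and Pnrc2, a nuclear receptor coactivator (-0.57), completed them. The other tested probe set of Gpr137b stood at -0.14, and that of Perp went the opposite way, at 0.07. Of the 30 genes named in the 2 directions, 10 had other tested probe sets, 15 in all, of which 10 had the same sign and 2 an unadjusted p under 0.05.

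The mutants were set beside wild type for these genes as well, with the caution that the genes were picked on the same wild-type arrays. Of the 30 genes, limma called 0 between CD mutant and wild type (0% of all probe sets) and 4 between ED mutant and wild type (0.282% of all probe sets). A gene that missed the threshold is not shown to be alike in both, as Ccl2 stood 0.57 lower in the CD mutant. Besides Ccl20 these were Slc5a11, higher in the ED mutant by 1.11 (adjusted p = 0.0203), Ctsh, higher by 1.00 (adjusted p = 0.0141), and Adprm, at -0.70 (adjusted p = 0.0141). Against empty vector, limma called 18 of the 30 genes with the CD mutant and 16 with the ED mutant (0.22% and 1.64% of all probe sets). Those calls share the 2 empty vector arrays on which the genes were also picked. In the same comparisons, Slc5a11 stood at 1.03 with wild type, 1.08 with the CD mutant and 2.14 with the ED mutant. Ctsh stood at -0.60, -0.76 and 0.41, and Adprm at 0.55, 0.98 and -0.15. For Ctsh and Adprm the ED mutant arrays thus lay on the other side of the empty vector mean from the wild-type arrays.

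**Figure D4:**
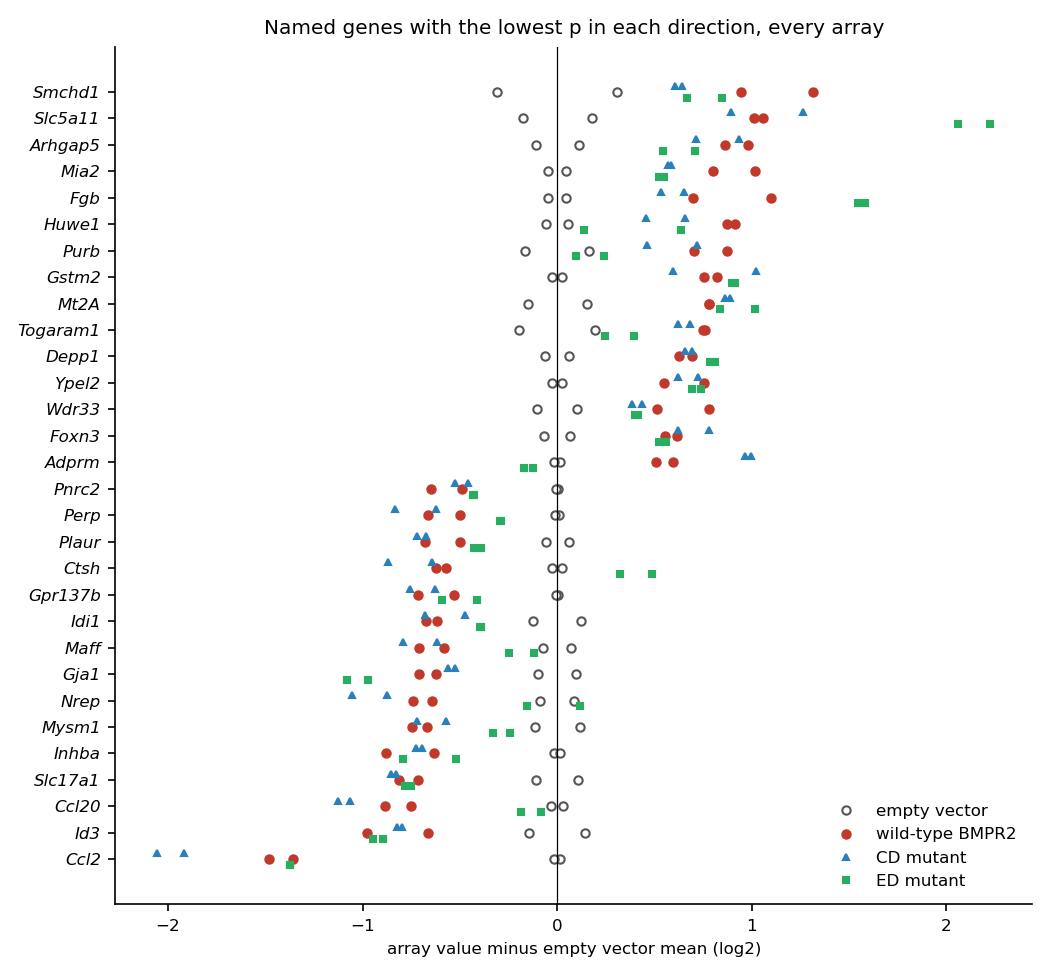
Value on each array minus the mean of the 2 empty vector arrays (horizontal axis, log2) for the 15 higher and 15 lower genes with the lowest p, by construct. Wild-type points lie on 1 side of both empty vector points in every gene, as the naming rule required, and the ED mutant stands apart from wild type for Slc5a11, Adprm, Ctsh and Ccl20.

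Over 31 gene lists with 633 tested memberships, 2 lists held a called gene and 29 held none, and list medians lay between -0.11 and 0.10. In the list of chemokines, cytokines and NF-kB genes limma called 2 of 28 members, Ccl2 and Ccl20, both lower. Over all 10904 genes tested it called 1 higher and 2 lower. In the list 18 differences were negative, and the median was -0.04. At an unadjusted p under 0.05 there were 1 higher and 3 lower, against 434 higher and 627 lower over all genes. Nfkbia, the NF-kB inhibitor that is itself induced by NF-kB, read 8.16 and 8.02 with empty vector and 7.80 and 7.70 with wild type (difference -0.34, adjusted p = 0.346). Sod2, mitochondrial superoxide dismutase and another NF-kB target, stood at 0.21 (adjusted p = 0.465), and Mmp9, a gelatinase, at 0.31 (adjusted p = 0.572). Of 17 interferon response genes limma called 0 (2 higher at an unadjusted p under 0.05), and the members with the lowest p were Parp12 at 0.40 (adjusted p = 0.247) and Psmb9, an immunoproteasome subunit, at 0.29 (adjusted p = 0.395).

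The immediate early and p53 lists had the lowest medians of the 31. Among 28 immediate early genes, which serum and growth factors induce within minutes, limma called 0 (4 lower at an unadjusted p under 0.05), 12 did not overlap on the lower side (25.4% of all genes) and the median was -0.11. Nr4a1, an orphan nuclear receptor, stood at -0.38 (adjusted p = 0.254), Ier3 at -0.33 (adjusted p = 0.370) and Jun at -0.28 (adjusted p = 0.432). Among 20 genes of p53 and growth arrest limma called 0 (4 lower at an unadjusted p under 0.05), 11 did not overlap on the lower side and the median was also -0.11. Gadd45g, a stress-induced growth arrest gene, read 9.90 and 9.73 against 9.35 and 9.19 (difference -0.54, adjusted p = 0.145). In the same list Aen, a nuclease of apoptosis, stood at -0.43 (adjusted p = 0.339) and Mdm2, the ligase that degrades p53, at -0.28 (adjusted p = 0.521). Of 29 cell cycle genes limma called 0 (2 lower at an unadjusted p under 0.05) and the median was -0.06, with Ccnb1, the mitotic cyclin B1, at -0.43 (adjusted p = 0.239).

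Structural genes gave no call in limma. In the 24 contractile genes of smooth muscle 2 were higher and 3 lower at an unadjusted p under 0.05, and the median was 0.04. Tpm1 and Tpm4, tropomyosins of the thin filament, stood at -0.35 and -0.36 (adjusted p = 0.306 for both), Flna, filamin A, at -0.30 (adjusted p = 0.422) and Ppp1r12a, the targeting subunit of myosin phosphatase, at 0.46 (adjusted p = 0.339). Of 16 skeletal and cardiac muscle markers 2 were higher and 1 lower at that level, with 8 positive and 8 negative differences and a median near 0. Acta1, skeletal actin, read 6.42 and 5.99 with empty vector and 7.23 and 6.80 with wild type (difference 0.81, adjusted p = 0.175), while Tnnc1, a troponin, stood at -0.37 (adjusted p = 0.372) and Myh1, a fast myosin heavy chain, at -0.21 (adjusted p = 0.536). Of 32 extracellular matrix genes 3 were higher and 3 lower at that level, with a median of -0.02, among them Lamb2, laminin beta 2, at -0.35 (adjusted p = 0.304) and Col12a1, a collagen of the fibril surface, at -0.39 (adjusted p = 0.370). Col3a1 read 4.77 and 4.41 with empty vector, both below the filter level, and 4.98 and 5.03 with wild type, both just above it (difference 0.42, adjusted p = 0.333). Of 26 epithelial genes 2 were higher and 2 lower at an unadjusted p under 0.05, and the median was -0.03. Cdh1 read 9.22 and 9.26 against 9.65 and 9.70 (difference 0.43, adjusted p = 0.230), Lgals4, an intestinal galectin, stood at 0.44 (adjusted p = 0.169), Cdh16, kidney cadherin, at -0.40 (adjusted p = 0.249) and Krt19 at -0.25 (adjusted p = 0.383). Of 15 fibroblast and mesenchymal markers 1 was higher and 1 lower at that level, with 9 positive differences and a median of 0.01. S100a4, a calcium-binding protein of motile mesenchymal cells, read 8.68 and 8.50 against 8.13 and 8.07 (difference -0.49, adjusted p = 0.139), while the transcription factor genes Twist1 and Zeb1 stood at 0.19 and 0.23 (adjusted p = 0.693 and 0.561).

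Of 31 vasoactive peptides and receptors limma called 0 (2 higher and 4 lower at an unadjusted p under 0.05), and the median was near 0. Cav1, the coat protein of caveolae, read 8.75 and 8.29 with empty vector and 8.02 and 7.73 with wild type (difference -0.64, adjusted p = 0.237). Its partner Cav2, picked after its values were seen, stood at -0.82 (adjusted p = 0.230). Edn1, which encodes the vasoconstrictor endothelin-1, read 6.82 and 6.76 against 6.49 and 6.47 (difference -0.31, adjusted p = 0.331), and Npr3, the clearance receptor of natriuretic peptides, stood at 0.30 (adjusted p = 0.410).

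Among 30 hypoxia and glycolysis genes limma called 0 (5 higher at an unadjusted p under 0.05), 14 did not overlap on the higher side (20.1% of all genes) and the median was 0.09. Bnip3, a mitophagy receptor induced in hypoxia, read 6.25 and 6.22 with empty vector and 6.69 and 6.89 with wild type (difference 0.56, adjusted p = 0.125). Its relative Bnip3l read 8.86 and 9.03 against 9.38 and 9.42 (difference 0.45, adjusted p = 0.192), and Pfkl, a phosphofructokinase of glycolysis, stood at 0.32 (adjusted p = 0.300). The labels give normoxia for all groups. Other stress lists were mixed. Of 17 NRF2 antioxidant genes limma called 0 (2 higher and 2 lower at an unadjusted p under 0.05), with Me1, malic enzyme, at -0.42 (adjusted p = 0.193) and Gstm1, a glutathione S-transferase with close relatives, at 0.50 (adjusted p = 0.196). In the list of 29 genes for the unfolded protein and amino acid response limma called 1, Mia2, which was higher and is described above as a gene of cargo export. At an unadjusted p under 0.05 there were 2 higher and 6 lower, 15 did not overlap on the lower side (25.4% of all genes), and the median was -0.05. In that list Edem1, which marks misfolded glycoproteins for degradation, stood at -0.34 (adjusted p = 0.271) and Manf, a secreted factor induced by such stress, at -0.28 (adjusted p = 0.339). Of 16 heat shock protein genes 1 was higher and 1 lower at an unadjusted p under 0.05, with 12 negative differences and a median of -0.04. Hsp90ab1, a constitutive chaperone, read 11.99 and 12.34 against 12.85 and 12.68 (difference 0.60, adjusted p = 0.193).

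Of the lists of abundant housekeeping transcripts, that of ribosomal proteins had a narrow range. That of oxidative phosphorylation was no narrower than some others, such as Smads and Smad regulators at -0.20 to 0.25. The 24 ribosomal protein genes lay between -0.08 and 0.17 with a median of 0.02, and the 36 oxidative phosphorylation genes between -0.19 and 0.31 with a median of 0.01, and neither list held a call in limma (0 and 1 members at an unadjusted p under 0.05).

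**Figure D5:**
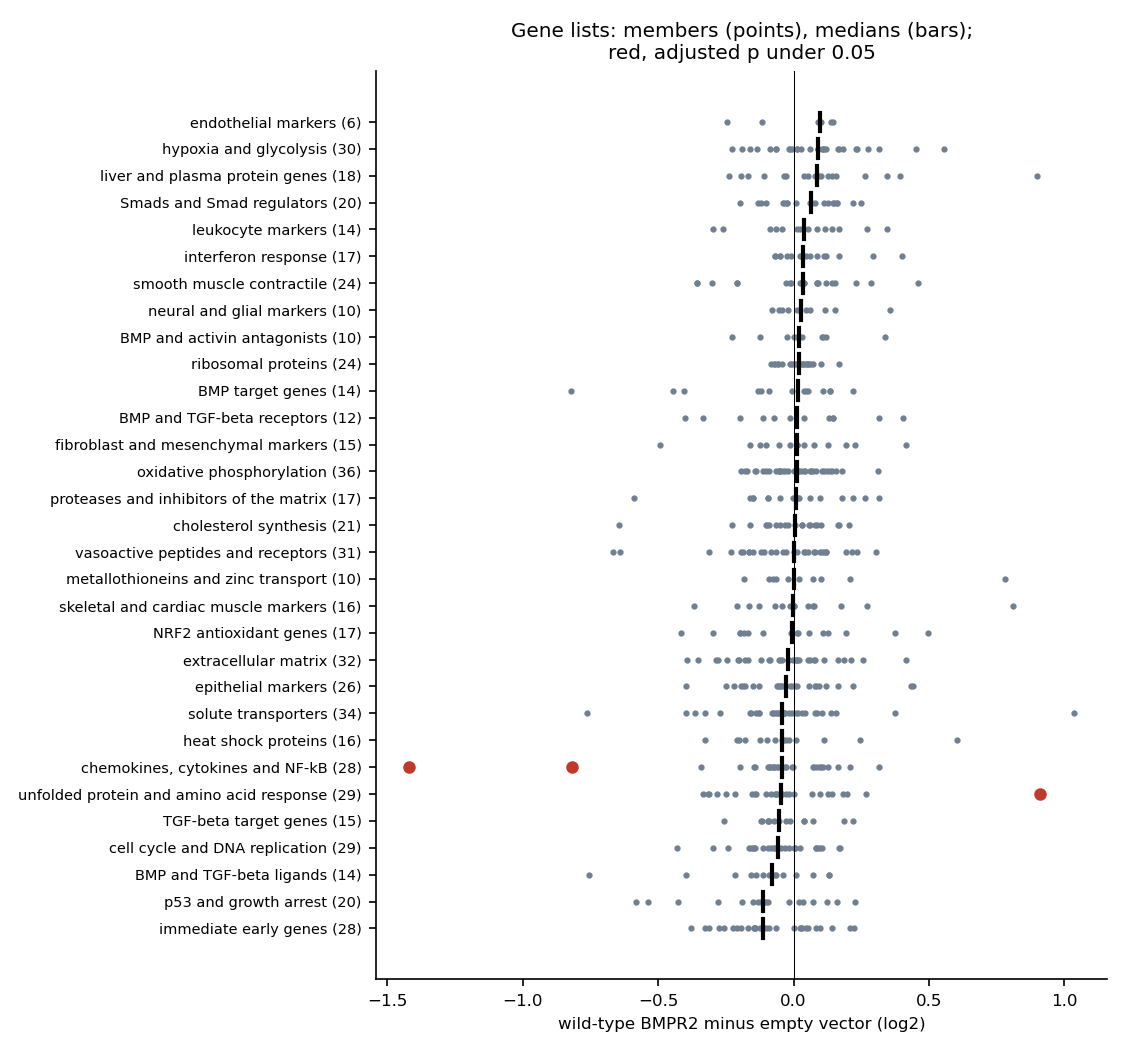
Difference of wild-type BMPR2 from empty vector (horizontal axis, log2) for every tested member (points) of 31 gene lists, with the median of each list as a bar and the number of tested members in brackets. Called members are red. All medians lie between -0.11 and 0.10, and the red points are Ccl2, Ccl20 and Mia2.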

How the data were processed

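Biotin-labelled total RNA was read on Affymetrix arrays for rat, per the protocols in the labels. The log2 values were made by the authors with RMA, as the submitters' processing notes state; its version is not given in the sources used here, nor which arrays it normalized jointly. Of 31042 probe sets other than controls, 20826 have 1 gene in the platform annotation given, 436 several and 9780 none; 20758 symbols were updated through RefSeq (GRCr8). The model for the 8 arrays used limma 3.58.1 under R 4.3.3 (lmFit with 4 group means, contrasts, eBayes; 4 residual degrees of freedom, 9.68 after moderation). P-values were two-sided and adjusted by Benjamini-Hochberg over the 19534 tested probe sets, and an adjusted p under 0.05 was called. SE is the moderated standard error. Lists used the probe set with the highest mean per gene (10904 genes). The code was tested on simulated data.

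The members and lists were chosen with earlier results of these data known. Named are rat Bmpr2, every called gene, the 15 genes with the lowest p in each direction among those without overlap, with a difference of at least 0.5 and a group mean at the filter level or above, up to 4 members per list by p, and defining markers. Alternatives were other filters, normalizations, variance models, array sets, a replicate block, and, for lists, the mean of a gene's probe sets. Replicate numbers were not taken as a pairing of the arrays. Deviations of same-numbered empty vector and wild-type arrays correlated at 0.0288, and those of CD and ED mutant arrays at 0.114. Such values cannot show whether arrays were handled in pairs.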

Additional observations from a re-analysis of the deposited data

How the results depend on the processing

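The count of 3 called probe sets became 1 with no filter, with only the 4 arrays compared and with a replicate block, 19 with the filter at the 60th percentile and 196 with an intensity trend and robust variance. It was 3 with quantile normalization, with all 10 arrays and with a 1.5-fold minimum, and 4 with arrays centred on their median. Leaving out 1 of the 8 arrays gave 1 to 2 called probe sets, and Ccl2 was among them each time; without empty vector replicate 2 the other was Snx27. The block refers to the replicate numbers 1 and 2, which were not taken as a pairing in the fit reported. List genes called, 3 in all, numbered 1 with no filter, with the replicate block and with only the 4 arrays, 10 at the 60th percentile filter, 30 with trend and robust variance and 7 when a gene's tested probe sets were averaged; leaving out 1 array gave 1 each time. The difference of the ED mutant from wild type for Ccl20 ranged from 0.618 to 0.753 when 1 array was left out, and its adjusted p from 0.0365 to 0.196. Without 1 array, a few values near 0 changed sign, and none of them was called. The ED mutant against wild type ranged from -0.017 to 0.106 for Ccl2 and was negative without wild-type BMPR2 replicate 2. Wild type against empty vector ranged from -0.0026 to 0.22 for Fstl1 and from -0.11 to 0.0045 for Gfap, with the changed sign without empty vector replicate 1, and from -0.25 to 0.0036 for Fst and -0.044 to 0.38 for Rpl30, with the changed sign without empty vector replicate 2. The cause of these shifts was not tested. With no scanner intensities used here, no probe set can be called present or absent, and small differences of dim probe sets such as Mia2 are the least certain.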
